A study of Mus musculus with 11 samples.

Results

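SR proteins and Tra2 proteins are splicing factors with an RNA recognition domain and a domain rich in arginine and serine. The genes described here are Srsf1, Srsf2, Srsf3, Srsf4, Srsf5, Srsf6, Srsf7, Srsf10, Tra2a and Tra2b, taken by gene name: 10 of the 52661 genes in the authors' expression table, and 98 of the 220976 splicing events that had at least 10 reads in every library. The cells were Neuro-2A (N2A), a mouse neuroblastoma line, grown in serum-containing medium and harvested 48 h after transfection of an siRNA pool with a lipid reagent. Knockdown groups were Fubp1 (n = 2 libraries), Khsrp (n = 2), Khsrp together with Fubp1, called the double knockdown here (n = 2), and Rbm38 (n = 2), and all were set against a non-targeting siRNA pool, siNT (n = 3). The submitters call the replicates biological, the libraries were stranded and made from polyA RNA with a longer insert than usual, and all of the comparisons with siNT share the same 3 siNT libraries.

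SR proteins bind short sequences in exons and recruit the splicing machinery to nearby splice sites, and their own pre-mRNAs are spliced in alternative ways. Most of these genes hold a poison exon, an exon whose inclusion brings a premature stop codon into the message, so that it is degraded by nonsense-mediated decay (NMD), and several also keep an intron in a share of their transcripts. Many SR proteins and Tra2b are known to promote inclusion of the poison exon of their own gene, which lowers the output of productive mRNA when the protein is abundant. FUBP1 and KHSRP are related proteins with KH domains that bind single-stranded nucleic acid, and RBM38 is an RNA-binding protein with a single RNA recognition domain.

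The knockdowns lowered their targets in the authors' deposited table: Fubp1 had 27.9 RPKM (reads scaled to transcript length and library size) in Fubp1 knockdown and 19.8 RPKM in the double knockdown, against 180.1 RPKM in siNT. Khsrp had 8.06 RPKM in Khsrp knockdown and 6.77 RPKM in the double knockdown, against 47.0 RPKM in siNT, in the authors' deposited table. Rbm38 had 4.03 RPKM in Rbm38 knockdown, against 34.5 RPKM in siNT, in the authors' deposited table. Khsrp was also lower in Rbm38 knockdown, at 33.8 RPKM (log2 fold change -0.70, FDR = 0.0243 in the authors' deposited table). No other target had an FDR under 0.05 outside the knockdowns aimed at it, with Fubp1 in Rbm38 knockdown the nearest (log2 fold change -0.39, authors' FDR = 0.0795). Of 13 markers of Neuro-2A cells, 10 had at least 1 RPKM in siNT, with a summed level of 916 to 1301 RPKM over the 5 groups, while Nefl and Nefm were near 0. The 10 markers of other cell types summed to 2.9 to 6.56 RPKM. The library numbers in the titles were split here into 2 sets. Numbers 1 to 4 hold both Fubp1 libraries with siNT A and B, and 8 to 27 the other knockdowns with siNT C. The labels do not say what the numbers stand for, and the later set has a gap of its own from 11 to 20. Only siNT has libraries in both sets. A fit with a term for the sets therefore compares Fubp1 knockdown with siNT A and B, and each other knockdown with siNT C alone.

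The sequences below are the first part of the poison exons of Tra2a, Tra2b, Srsf4 and Srsf7, from the first base of the exon to the premature stop codon, which is in capitals. They come from the GENCODE vM21 transcripts (GRCm38) and show where the reading frame of the gene ends when the exon is included. They were chosen because the Tra2a and Srsf4 exons gave the largest differences in inclusion among these genes, because Tra2b is the close relative of Tra2a, and because the Srsf7 exon lies in an intron that differed.
Tra2a-202: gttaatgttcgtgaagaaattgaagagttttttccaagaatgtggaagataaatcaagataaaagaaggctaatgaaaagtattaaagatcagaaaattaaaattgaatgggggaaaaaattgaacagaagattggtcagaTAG
Tra2b-206: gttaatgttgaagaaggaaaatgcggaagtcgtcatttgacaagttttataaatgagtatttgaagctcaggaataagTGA
Srsf4-203: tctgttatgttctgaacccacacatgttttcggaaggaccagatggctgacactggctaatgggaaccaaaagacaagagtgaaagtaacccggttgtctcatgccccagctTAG
Srsf7-203: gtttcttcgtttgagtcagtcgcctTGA
The Tra2a stretch lies at chr6:49252965-49253108 on the minus strand, in exon 2 of 9 of an NMD transcript, and the whole exon has 306 nt with the stop at base 144. The Tra2b stretch lies at chr16:22259181-22259261 on the minus strand, in exon 2 of 10, and the whole exon has 276 nt. These exons of Tra2a and Tra2b begin with the same 9 bases, and both are rich in GAA, the kind of sequence that Tra2 proteins bind. Read on the transcribed strand with overlaps counted, the hexamer GAAGAA occurs 4 times in the whole Tra2a exon and 3 times in the whole Tra2b exon. Among internal exons of the same length class in the annotation, 23.2% of 3876 hold GAAGAA for Tra2a and 21.8% of 5492 for Tra2b, and 99.9% have a lower density of GAA than the Tra2a or the Tra2b exon. The Srsf4 stretch lies at chr4:131884276-131884390 on the plus strand, in an exon of 207 nt with no GAAGAA, where 18.8% of 15692 exons of that length class hold it. The Srsf7 stretch lies at chr17:80205054-80205081 on the minus strand, at the start of an exon of 460 nt. GAAGAA occurs 1 time in that whole exon, where 31.2% of 1574 exons of that length class hold it.

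The level of these genes was high in N2A cells. By the authors' deposited table the order in siNT was Srsf5 at 457.6 RPKM, Srsf3 at 451.7 RPKM, Srsf2 at 331.2 RPKM, Srsf10 at 319.2 RPKM, Srsf1 at 299.7 RPKM, Srsf7 at 254.8 RPKM, Tra2b at 168.3 RPKM, Tra2a at 159.7 RPKM, Srsf6 at 131.3 RPKM and Srsf4 at 34.4 RPKM. Every one except Srsf4 stood above at least 95.8% of the 23378 genes the authors tested, and Srsf4 stood above 83.6%. The table gives 1 value per group, so the spread of levels between libraries is not known and neighbours in this order cannot be told apart. Fold changes, p-values and FDR below are the authors' own, and a gene is said to have fallen where that FDR was under 0.05. In these bulk libraries less RNA per cell and fewer cells that hold it cannot be told apart.

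**Figure D1:**
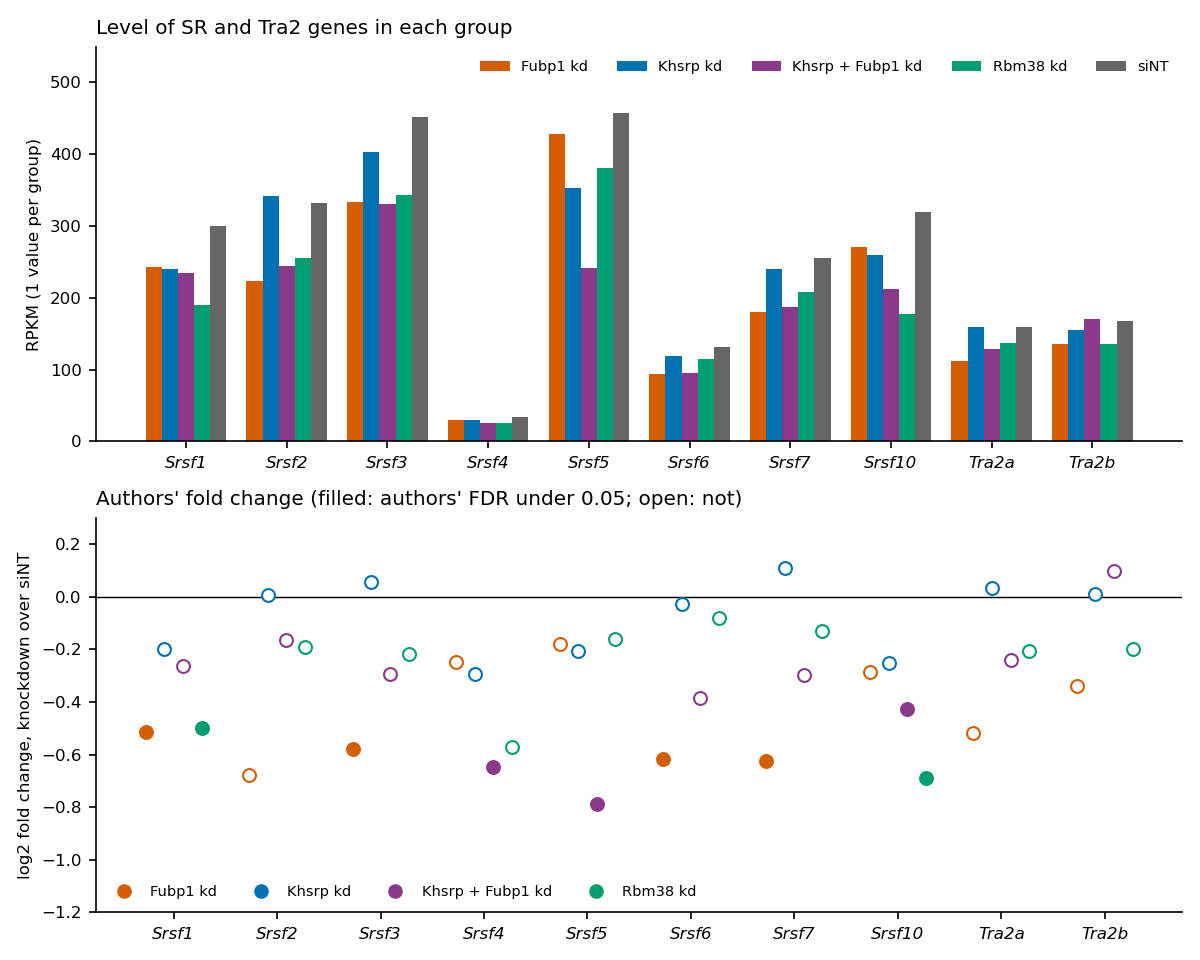
Upper panel: level of the 10 genes in RPKM on a linear axis, 1 value per group from the authors' table, knockdown groups left of siNT. Lower panel: the authors' log2 fold change of each knockdown over siNT, filled where their FDR was under 0.05; the filled points lie between -0.43 and -0.79 and all are below 0.

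Fubp1 knockdown lowered 4 of the 10 genes and raised none. In the authors' deposited table the share of all 23378 tested genes that fell was 10.5%, and among the 4344 genes with at least 30 RPKM in siNT, the range in which all 10 lie, it was 26.8%. All but Srsf4 had at least 131.3 RPKM in siNT, and no share was taken for genes at those levels. Srsf1, a shuttling SR protein that activates exons, fell to 242.3 RPKM in Fubp1 knockdown, against 299.7 RPKM in siNT, with a log2 fold change of -0.51 (authors' deposited table, FDR = 0.00044). Srsf3, the smallest SR protein, fell to 332.8 RPKM in Fubp1 knockdown, against 451.7 RPKM in siNT, with a log2 fold change of -0.58 (authors' deposited table, FDR = 0.0159). Srsf6, with a pair of RNA recognition domains, fell to 94.2 RPKM in Fubp1 knockdown, against 131.3 RPKM in siNT (log2 fold change -0.62, FDR = 0.00646 in the authors' deposited table). Srsf7, which carries a zinc knuckle and takes part in splicing and mRNA export, fell to 180.4 RPKM in Fubp1 knockdown, against 254.8 RPKM in siNT (log2 fold change -0.63, FDR = 0.01035 in the authors' deposited table). All 10 log2 fold changes were negative in the authors' deposited table. Their median was -0.51, against 0.00 over all genes tested, and no median was taken over those with at least 30 RPKM. Srsf2 had the most negative, -0.68, and its FDR of 0.05002 in the authors' deposited table just missed the threshold; with the p-values adjusted over genes of at least 1 RPKM it was 0.0328 and that of Tra2a was 0.0451.

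The Khsrp knockdown changed none of the 10 at the authors' FDR, while 4.34% of all tested genes fell and 3.82% rose in their deposited table, and 7.27% of those with at least 30 RPKM fell. The lowest unadjusted p there was 0.0570, for Srsf10, so no gene passed an unadjusted 0.05 either. The log2 fold changes of the authors' deposited table ran from -0.29 for Srsf4 to 0.11 for Srsf7, with 5 of 10 negative and a median of -0.01. For Srsf3, Srsf7 and Tra2b the ratio of the deposited RPKM values has the opposite sign to the authors' fold change in Khsrp knockdown, and neither direction is claimed.

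In the double knockdown 3 of the 10 fell, against 13.7% of all tested genes and 26.4% of those with at least 30 RPKM. Srsf5, whose transcript is known for an intron kept in a share of its messages, had the largest fall of any of these genes in any knockdown: 241.7 RPKM in the double knockdown, against 457.6 RPKM in siNT, a log2 fold change of -0.79 (authors' deposited table, FDR = 0.00101). Srsf4, the longest of the classical SR proteins, fell to 25.6 RPKM in the double knockdown, against 34.4 RPKM in siNT (log2 fold change -0.65, FDR = 0.0138 in the authors' deposited table). Srsf10, an SR-like protein that represses splicing when it loses its phosphates, fell to 212.2 RPKM in the double knockdown, against 319.2 RPKM in siNT (log2 fold change -0.43, FDR = 0.00721 in the authors' deposited table). Of the other 7, the authors' deposited table gives negative values for 6, from -0.16 for Srsf2 to -0.39 for Srsf6, and 0.10 for Tra2b. Srsf1, Srsf3, Srsf6 and Srsf7, which fell in Fubp1 knockdown, had log2 fold changes of -0.26, -0.29, -0.39 and -0.30 in the double knockdown by the authors' deposited table and did not pass; the difference between those knockdowns cannot be tested without values per library.

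Rbm38 knockdown lowered 2 of the 10, against 7.02% of all tested genes and 18.8% of those with at least 30 RPKM. Srsf10 fell to 178.1 RPKM in Rbm38 knockdown, against 319.2 RPKM in siNT, with a log2 fold change of -0.69 and the lowest FDR of any of the 10 genes in any knockdown (authors' deposited table, FDR = 1.14e-05). Srsf1 fell to 189.4 RPKM in Rbm38 knockdown, against 299.7 RPKM in siNT (log2 fold change -0.50, FDR = 0.00119 in the authors' deposited table). The 8 others had log2 fold changes from -0.57 for Srsf4 to -0.08 for Srsf6 in the authors' deposited table, all negative. Srsf4 had an FDR of 0.0548 there, and of 0.0364 with the adjustment over genes of at least 1 RPKM.

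Srsf5 had the widest range of levels over the 5 groups, 0.92 on the log2(RPKM + 1) scale. Among 7965 genes with at least 10 RPKM in siNT, the profiles nearest to it over the 5 group values belonged to Ppp3cb, Rasal3 and Arfip2, at distances of 0.07, 0.08 and 0.10 on that scale. The catalytic calcineurin subunit gene Ppp3cb had 79.8 RPKM in Fubp1, 66.4 RPKM in Khsrp, 42.9 RPKM in double and 68.1 RPKM in Rbm38 knockdown, against 82.4 RPKM in siNT.

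Genes that act with these factors gave the following counts at the authors' FDR in their deposited table. Of all tested genes there, 10.5%, 4.34%, 13.7% and 7.02% fell and 12.0%, 3.82%, 13.2% and 7.96% rose in Fubp1, Khsrp, double and Rbm38 knockdown. Of those with at least 30 RPKM in siNT, 26.8%, 7.27%, 26.4% and 18.8% fell. Of 23 other SR and SR-related genes tested, 5 fell and 2 rose in Fubp1 knockdown, 2 fell in Khsrp knockdown, 9 fell and 1 rose in the double knockdown, and 12 fell in Rbm38 knockdown. The largest changes in this list were U2af1 in Fubp1 knockdown (log2 fold change -0.71), Srek1 in Khsrp (-0.58) and double knockdown (-0.99), and Luc7l3 in Rbm38 knockdown (-0.84), each from the authors' deposited table. U2af1 encodes the small subunit of the factor that recognises the 3′ splice site, Srek1 an SR-related regulator, and Luc7l3 a protein that associates with the U1 particle. Of 10 genes for SR protein kinases, a phosphatase and the import receptor tested, 2, 3, 4 and 3 fell in Fubp1, Khsrp, double and Rbm38 knockdown and none rose. Ppp1ca, a catalytic subunit of protein phosphatase 1, led that list in Khsrp knockdown with 183.2 RPKM, against 334.4 RPKM in siNT, a log2 fold change of -0.89 (authors' deposited table, FDR = 4.5e-08). Prpf4b, a kinase of spliceosome proteins, led it in the double knockdown with 38.9 RPKM, against 73.6 RPKM in siNT, a log2 fold change of -0.92 (authors' deposited table, FDR = 2.09e-10). Srpk1, a kinase that phosphorylates SR proteins in the cytoplasm, led it in Rbm38 knockdown, with a log2 fold change of -0.43 in the authors' deposited table.

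NMD removes the messages that hold poison exons, so the level of its factors bears on how inclusion is read. Of 17 NMD and exon junction genes tested, 3 fell and 3 rose in Fubp1 knockdown, 1 fell in Khsrp knockdown, 3 fell in the double knockdown, and 2 fell and 1 rose in Rbm38 knockdown, at the authors' FDR and against the same shares of all genes. In the double knockdown Nbas had 3.43 RPKM, against 9.48 RPKM in siNT (log2 fold change -1.38), and Upf2, a core NMD factor, had 10.9 RPKM, against 24.1 RPKM in siNT (log2 fold change -1.11, FDR = 8.68e-13 in the authors' deposited table). In Fubp1 knockdown the largest changes were higher levels, of Smg6, the endonuclease of NMD, with 15.7 RPKM, against 9.16 RPKM in siNT (log2 fold change 0.86), and of Upf3b (log2 fold change 0.72), in the authors' deposited table. The part of these changes in the exon inclusion below was not tested. Of 5 genes for nuclear RNA retention and decay tested, 1 fell and 1 rose in Fubp1 knockdown, none changed in Khsrp knockdown, 1 fell in the double and 2 fell in Rbm38 knockdown; Exosc10, the nuclear exosome nuclease, fell in the double knockdown (log2 fold change -0.70) and Nxf1, the main mRNA export receptor, in Rbm38 knockdown (log2 fold change -0.68), in the authors' deposited table.

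Splicing was read as PSI, the percent of a gene's transcripts with the exon, the intron or the splice site in question. It rests on reads that the submitters' event caller counted for inclusion and exclusion. Of the 98 events of these genes with at least 10 reads in every library, 37 had a mean PSI of 1 to 99 and were tested together with 60137 events of 9317 genes in all; they were 10 cassette exons, 10 retained introns, 6 choices of 3′ splice site and 11 of 5′ splice site. By gene the tested events were 2 in Srsf1, 2 in Srsf2, 7 in Srsf4, 4 in Srsf5, 2 in Srsf6, 8 in Srsf7, 3 in Srsf10, 8 in Tra2a and 1 in Tra2b, with 0 in Srsf3. Of the other 61, 29 had a mean PSI under 1 and 32 over 99, and none of those moved by more than 3.73 points between any 2 libraries. The tested events of these genes had a median of 312 to 882 reads per library, against 99 to 221 over all tested events. A difference in PSI between groups was tested with limma on the log2 odds of inclusion, adjusted over all 60137 events; an event is called where the adjusted p is under 0.05 and the means differ by at least 10 points.

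Over the 37 events, Fubp1 knockdown gave 1 call, against 0.713% of all events, and that event was higher. The Khsrp and Rbm38 knockdowns gave 0, against 0.00499% and 0.0682% of all events. The double knockdown gave 3 calls, all higher, which is 8.11% of the events of these genes, against 7.49% of all events. These 3 are exons in 1 intron of Srsf4 that share reads, so they are not separate results. Over all events, 1179 calls in the double knockdown were higher and 3323 lower. At an adjusted p under 0.05 with no size threshold the counts were 1, 0, 8 and 0 in Fubp1, Khsrp, double and Rbm38 knockdown, against 1.29%, 0.00499%, 14.5% and 0.0898% of all events. For the double knockdown 8 is 21.6% of the 37. At an unadjusted p under 0.05 in limma the counts were 11, 3, 12 and 2 of 37, which is 29.7%, 8.1%, 32.4% and 5.4%, against 14.3%, 10.4%, 26.8% and 10.7% of all events. Double against Fubp1 knockdown gave 0 calls and 3 events at adjusted p alone (3.95% and 6.28% of all events), and double against Khsrp knockdown gave 2 and 4 (4.83% and 7.38%). The 37 events had a median absolute difference of 2.47, 1.75, 2.55 and 2.13 points in Fubp1, Khsrp, double and Rbm38 knockdown, against 1.31, 1.28, 2.01 and 1.21 points over all tested events.

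**Figure D2:**
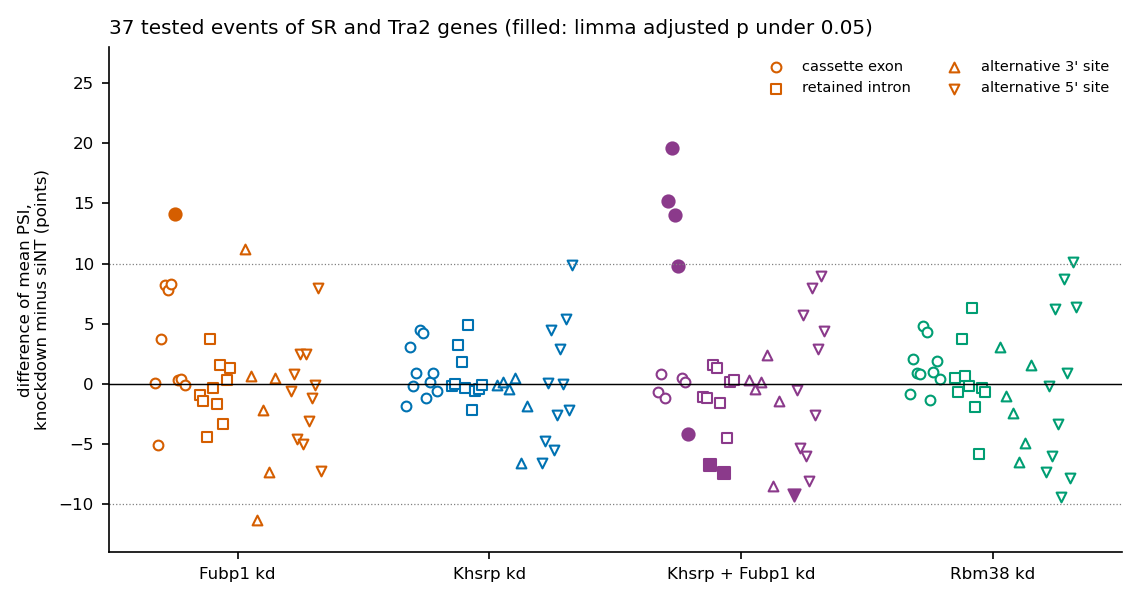
Difference of mean PSI, knockdown minus siNT, in points, for the 37 tested events by knockdown; marker shape gives the event type, filled markers have a limma adjusted p under 0.05, and dotted lines mark 10 points. Filled markers are at 14.1 in Fubp1 knockdown and between -9.2 and 19.6 in the double knockdown, with none in Khsrp or Rbm38 knockdown.

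The poison exon of Tra2a, whose sequence opens the list above, was included more often after both knockdowns that hit Fubp1. Its event covers 301 nt (chr6:49202807-49203107 as deposited, in a build that is not GRCm38) and had 1017 to 1957 reads per library. Inclusion was 24.8% and 20.51% in Fubp1 knockdown and 21.92% and 14.89% in the double knockdown, against 11.15%, 9.3% and 5.29% in siNT. It was 9.28% and 5.5% in Khsrp and 9.06% and 5.51% in Rbm38 knockdown. Every library of Fubp1 and double knockdown lay above every other library. Fubp1 knockdown was 14.1 points higher than siNT (log2 odds 1.69 ± 0.36 SE, limma adjusted p = 0.026) and the double knockdown 9.8 points higher (1.30 ± 0.36 SE, limma adjusted p = 0.021), just short of the size that makes a call. The double knockdown also exceeded Khsrp knockdown, by 11 points (limma adjusted p = 0.027), and differed from Fubp1 knockdown by -4.2 points (limma adjusted p = 0.65). The difference from Khsrp knockdown was lost without weights (0.136), without a filter on mean PSI (0.173), without double knockdown library A (0.264) and without Khsrp library B (0.241). Khsrp and Rbm38 knockdown differed from siNT by -1.2 and -1.3 points, with limma adjusted p-values of 0.87 and 0.85. Within the library set that holds both Fubp1 libraries, with siNT A and B alone, the difference was 12.4 points, and the Fubp1 call was lost there (limma adjusted p = 0.074). A term for the library sets makes the same comparison and is not a further check (limma adjusted p = 0.073). The call was also lost without siNT B (limma adjusted p = 0.054). Without Fubp1 library A or B the difference was 11.9 or 16.2 points, and the call was lost. It was also lost without weights (0.223) and without a filter on mean PSI (0.183). The double knockdown's result was lost without its library A (limma adjusted p = 0.282) without siNT C (0.071), without weights (0.114) and without a filter on mean PSI (0.1). Against siNT C, the siNT library of its own set, it was 13.1 points higher. In the authors' deposited table this exon is marked as changed in Fubp1 and double knockdown and not in the others.

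The largest differences in inclusion were in Srsf4, where the first intron holds 3 cassette exons of 207, 184 and 174 nt, each annotated in an NMD transcript. The exons share reads that skip them, so they are not independent of each other. The 207-nt exon, which carries the premature stop printed above, had 156 to 608 reads per library. Its inclusion was 19.2% and 16.95% in Fubp1 knockdown and 27.31% and 22.81% in the double knockdown, against 11.87%, 7.74% and 9.88% in siNT. The Khsrp libraries had 8.5% and 13.06% and the Rbm38 libraries 11.43% and 9.78%. The double knockdown libraries were the highest, the Fubp1 libraries came next without overlap, and the others mixed with siNT. The double knockdown was 15.2 points higher than siNT (log2 odds 1.64 ± 0.31 SE, limma adjusted p = 0.0013) and 14.3 points higher than Khsrp knockdown (limma adjusted p = 0.01). The difference from siNT passed the threshold under all 20 alternatives tried, with adjusted p-values of 0.000103 to 0.0448. The difference from Khsrp knockdown was lost without weights (limma adjusted p = 0.064), without double knockdown library A (0.13) and without Khsrp library A (0.21). Fubp1 knockdown was 8.2 points higher than siNT and did not pass (limma adjusted p = 0.12), and the double knockdown exceeded Fubp1 knockdown by 7 points, which did not pass either (limma adjusted p = 0.33).

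The 184-nt exon of Srsf4 had inclusion of 19.65% and 15.58% in Fubp1 knockdown and 27.99% and 30.78% in the double knockdown, against 5.69%, 9.4% and 14.32% in siNT. Khsrp knockdown gave 8.55% and 20.01%, and Rbm38 knockdown 19.03% and 10.16%. The 174-nt exon had 20.61% and 18.63% in Fubp1 knockdown and 23.42% and 27.36% in the double knockdown, against 8.03%, 10.42% and 15.59% in siNT. It was 10.76% and 20.36% in Khsrp and 22.58% and 8.75% in Rbm38 knockdown. The Khsrp libraries lay far apart from each other at these exons, as did the Rbm38 libraries, and the double knockdown libraries were above all others at both. The double knockdown was 19.6 points higher than siNT at the 184-nt exon (log2 odds 1.99 ± 0.43 SE, limma adjusted p = 0.004) and 14 points higher at the 174-nt exon (1.44 ± 0.43 SE, limma adjusted p = 0.03). The annotation places the stop codon of no NMD transcript within either exon. For the 184-nt exon that transcript is Srsf4-203, whose stop lies in the 207-nt exon. Neither the 184-nt nor the 174-nt exon was itself searched for stop codons. With a term for the library sets both calls were lost (limma adjusted p = 0.184 and 0.402), and the 174-nt exon also lost its call without siNT A, without siNT B and without either double knockdown library (0.074 to 0.179). Without a filter on mean PSI the adjusted p-values were 0.057 and 0.13, and the 174-nt exon had 0.118 without weights. Against siNT C alone the double knockdown was 15.2, 15.1 and 9.8 points higher at the 207-, 184- and 174-nt exons. The level of Srsf4 fell in the double knockdown, as given above, where these exons were included more often. In Rbm38 knockdown Srsf4 had 25.2 RPKM, and the 207-, 184- and 174-nt exons differed from siNT by 0.8, 4.8 and 4.3 points without passing. In Fubp1 knockdown Srsf4 had 30.3 RPKM (authors' FDR = 0.501), and these exons were 8.2, 7.8 and 8.3 points higher without passing. A link between level and inclusion was not tested. In the authors' deposited table the 207-nt and 174-nt exons are marked as changed in Fubp1 and double knockdown, and the 184-nt exon in the double knockdown.

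**Figure D3:**
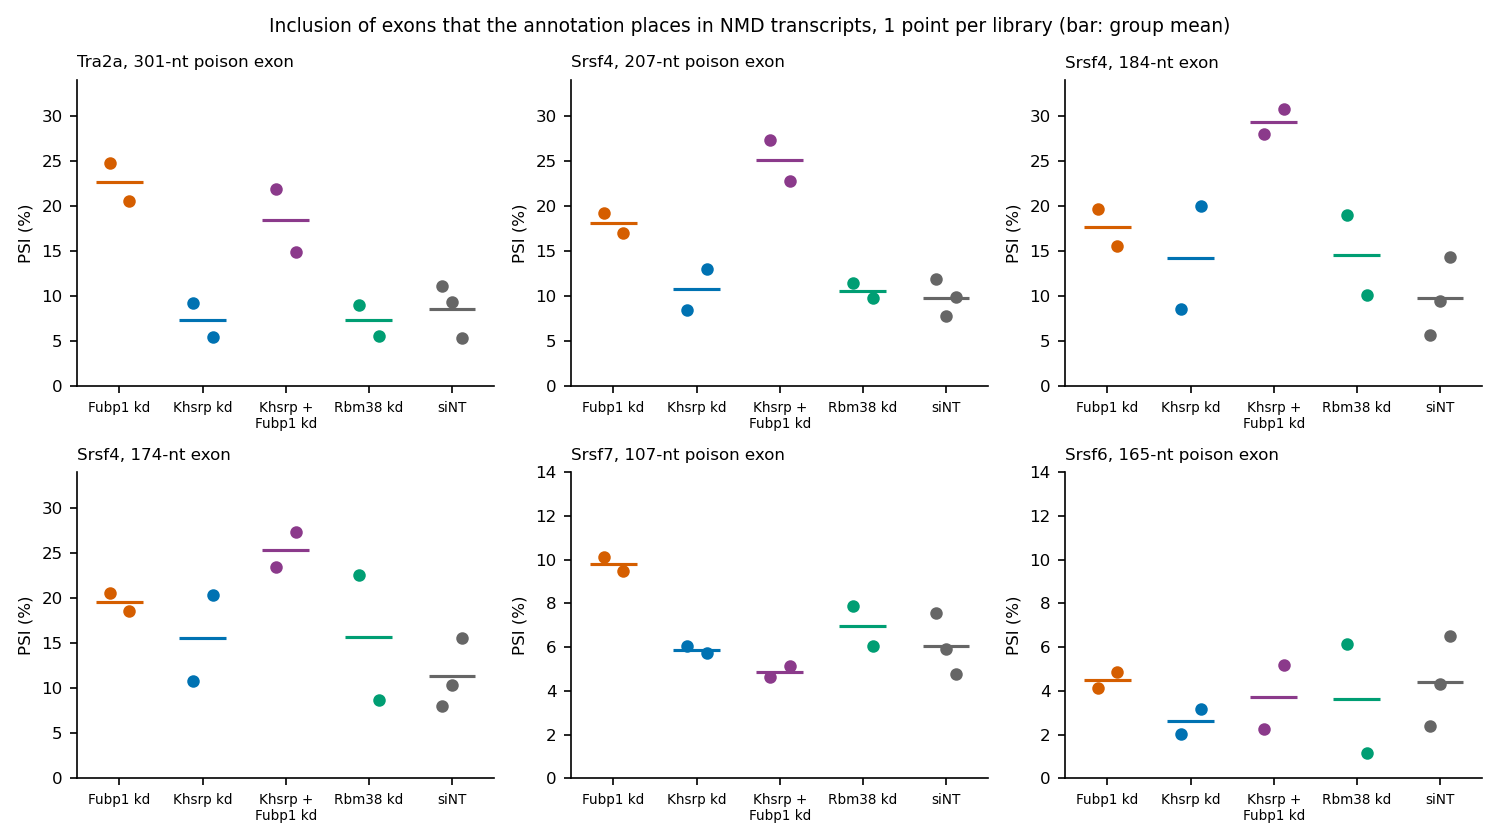
PSI in percent of 6 exons that the annotation places in NMD transcripts, 1 point per library and a bar at the group mean, knockdown groups left of siNT; the Srsf7 and Srsf6 panels use an axis to 14. Tra2a inclusion is 14.89 to 24.8 in Fubp1 and double knockdown, against 5.29 to 11.15 in siNT, and the Srsf4 exons are highest in the double knockdown.

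Srsf7 has an NMD exon of 460 nt inside its 874-nt intron, and the event table splits it into exons of 107 nt, which shares the 3′ splice site where the printed sequence starts, and 130 nt, which shares the 5′ splice site. Inclusion of the 107-nt exon was 10.14% and 9.49% in Fubp1 knockdown and 4.63% and 5.14% in the double knockdown, against 7.54%, 5.9% and 4.77% in siNT. The Khsrp libraries had 6.03% and 5.74% and the Rbm38 libraries 7.89% and 6.05%. The Fubp1 libraries were the highest of the 11. The difference from siNT was 3.7 points in Fubp1 knockdown (limma adjusted p = 0.19) and -1.2 points in the double knockdown (limma adjusted p = 0.53), and the double knockdown differed from Fubp1 knockdown by -4.9 points (log2 odds -1.08 ± 0.30 SE, limma adjusted p = 0.039). The Fubp1 and double knockdown libraries lie in different library sets, and with a term for the sets that adjusted p was 0.676. It passed under 10 of 20 alternatives, and was lost without weights (0.215), without a filter on mean PSI (0.072), without a trend (0.056), without any 1 of the 4 libraries compared (0.128 to 0.224) and without either Khsrp library (0.051). The 130-nt exon had inclusion of 0.67% to 2.29% over the 11 libraries and passed in no comparison. In the authors' deposited table the 107-nt exon is marked as changed in Fubp1 knockdown alone, and the 130-nt exon in no knockdown.

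The whole 874-nt intron of Srsf7, which lies around that exon, was kept less often in the double knockdown. It was retained in 17.04% and 14.76% of transcripts in Fubp1 knockdown and 7.4% and 6.41% in the double knockdown, against 16.25%, 13.89% and 12.63% in siNT. Khsrp knockdown gave 12.91% and 11.29%, and Rbm38 knockdown 12.53% and 12.14%. Both double knockdown libraries lay below the 9 others. The difference was -7.4 points from siNT (log2 odds -1.15 ± 0.26 SE, limma adjusted p = 0.0057) and -9 points from Fubp1 knockdown (limma adjusted p = 0.0086); it did not pass against siNT with a term for the library sets (0.102) or without double knockdown library B (0.073). The difference from Fubp1 knockdown, which is wholly between the library sets, was lost with that term (0.415), without weights (0.087), without Fubp1 library A (0.117) and without double knockdown library B (0.083). The deposited read-balance p of this intron was under 0.05 in at least 1 library. The alternative that left out such introns therefore did not test it. In the authors' deposited table it is marked as changed in double and Rbm38 knockdown and not in the others. This event, and the 3 described next for Srsf2, Srsf5 and Tra2a, differed by under 10 points and are given because their adjusted p was under 0.05; the choice was made after seeing the values.

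The 1059-nt intron of Srsf2, a nuclear SR protein that marks splicing speckles, was retained in 11.22% and 9.93% of transcripts in Fubp1 knockdown and 7.78% and 8.66% in the double knockdown, against 14.12%, 14.41% and 16.25% in siNT. It was 16.93% and 19.33% in Khsrp and 20.89% and 16.37% in Rbm38 knockdown. The libraries of Fubp1 and double knockdown were all below siNT and those of Khsrp and Rbm38 knockdown all above it. The double knockdown differed by -6.7 points from siNT (log2 odds -0.97 ± 0.26 SE, limma adjusted p = 0.015) and by -9.9 points from Khsrp knockdown (limma adjusted p = 0.0065). The other knockdowns did not pass against siNT, with -4.4 points in Fubp1 (limma adjusted p = 0.32), 3.2 points in Khsrp (0.65) and 3.7 points in Rbm38 knockdown (0.59). The result in the double knockdown was lost without weights (limma adjusted p = 0.076), with a term for the library sets (0.054) and without either double knockdown library (0.149 and 0.065). The difference from Khsrp knockdown was lost without weights (0.06), without double knockdown library A (0.074) and without Khsrp library B (0.07). This intron too had a deposited read-balance p under 0.05 in at least 1 library, so the alternative that left out such introns did not test it. The authors' deposited table marks this intron as changed in all 4 knockdowns. The 104-nt exon of Srsf2 that lies in the same intron and belongs to an NMD transcript had inclusion of 2.34% to 5.91% over the 11 libraries and passed in no comparison.

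Srsf5 had a longer form of an exon, 130 nt more at its 5′ splice site, read from 1660 to 7103 reads per library, the deepest tested event of these genes. Its share was 18.8% and 21.92% in Fubp1 knockdown and 11.92% and 11.51% in the double knockdown, against 22.06%, 27.09% and 13.72% in siNT. The Khsrp libraries had 14.38% and 14.35% and the Rbm38 libraries 12.99% and 14.3%. The value of siNT C was close to the knockdown libraries of its own set and the values of siNT A and B close to the Fubp1 libraries of theirs. The double knockdown differed by -9.2 points from all siNT (log2 odds -0.95 ± 0.31 SE, limma adjusted p = 0.048), but by -2 points from siNT C, and with a term for the library sets the adjusted p was 0.705. It passed under 6 of 20 alternatives. Library set and group cannot be told apart for this event. The authors' deposited table marks this group of sites as changed in Khsrp and Rbm38 knockdown and not in Fubp1 or double knockdown.

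The 189-nt coding exon of Tra2a, included nearly always, was skipped more often in the double knockdown. Inclusion was 98.88% and 98.62% in Fubp1 knockdown and 94.74% and 94.72% in the double knockdown, against 98.74%, 99.28% and 98.67% in siNT. Khsrp knockdown gave 98.79% and 97.82%, and Rbm38 knockdown 99.61% and 98.99%. The double knockdown libraries stood 3 points or more below the other 9. The difference was -4.2 points from siNT (log2 odds -2.33 ± 0.43 SE, limma adjusted p = 0.00095), -4 points from Fubp1 knockdown (limma adjusted p = 0.012) and -3.6 points from Khsrp knockdown (limma adjusted p = 0.027), from 2431 to 5166 reads per library. The difference from siNT was lost under 1 of 20 alternatives, the fit without weights (limma adjusted p = 0.063). The difference from Fubp1 knockdown passed under 13 of 20, and was lost with a term for the library sets (0.472), without weights (0.209), without a filter on mean PSI (0.059) and without any 1 of the 4 Fubp1 and double knockdown libraries (0.07 to 0.131). The difference from Khsrp knockdown passed under 15 of 20, and was lost without weights (0.251), without a filter on mean PSI (0.094), without Khsrp library A (0.277) and without either double knockdown library (0.124 and 0.116). The exon lies at chr6:49248986-49249174 on the minus strand of GRCm38.

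**Figure D4:**
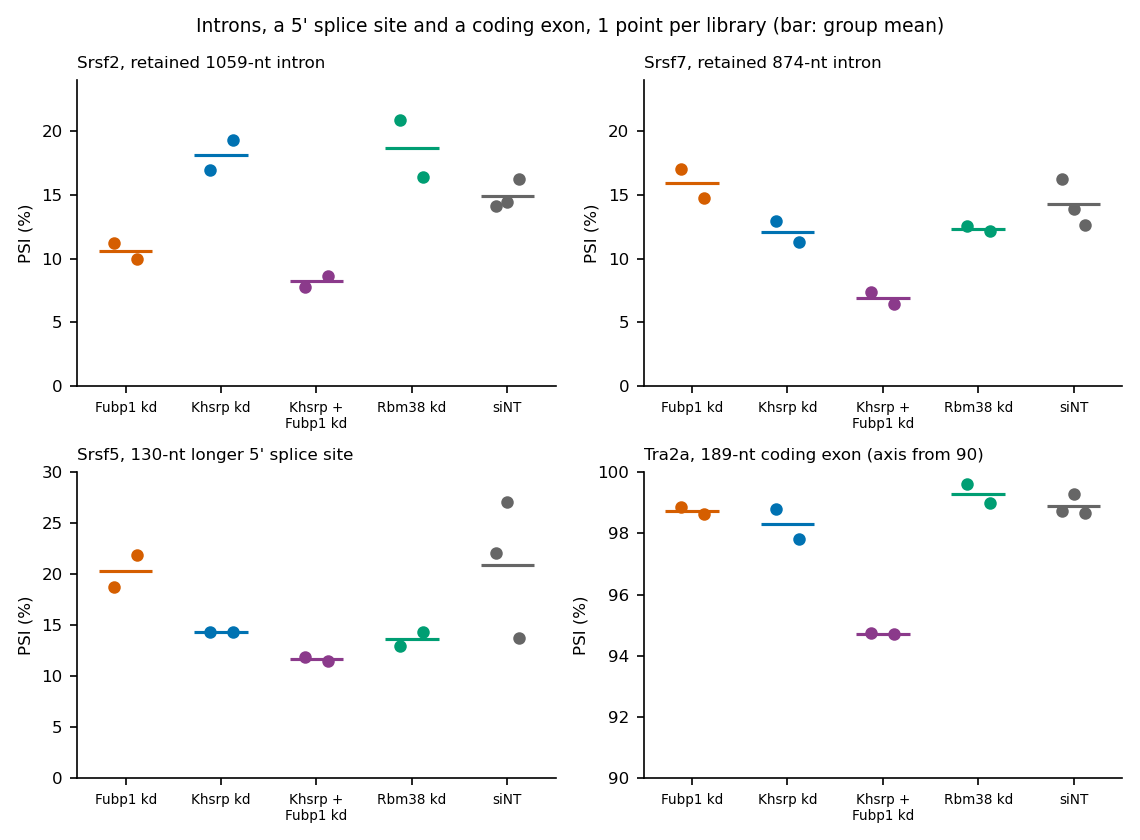
PSI in percent of the retained introns of Srsf2 and Srsf7, the longer 5′ splice site form of Srsf5 and the 189-nt coding exon of Tra2a (axis from 90), 1 point per library and a bar at the group mean, knockdown groups left of siNT. The double knockdown libraries are the lowest of the 11 in each panel, and siNT C of Srsf5, at 13.72, lies apart from the other siNT libraries.

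The remaining members had no event past the threshold. At the 3′ splice sites of an Srsf10 exon, use of the site giving 19 nt was 31.05% and 33.84% in Fubp1 knockdown and 21.13% and 21.95% in the double knockdown, against 21.42%, 19.84% and 22.35% in siNT. It was 18.55% and 23.62% in Khsrp and 25.17% and 23.53% in Rbm38 knockdown. The Fubp1 libraries were the 2 highest, 11.2 points above siNT, without passing (limma adjusted p = 0.14); the authors' deposited table marks this group of sites as changed in Fubp1 knockdown. This event was chosen after its values were seen; the deepest event of Srsf10, a 360-nt exon, was included at 97.91% to 100% in all libraries. Tra2b had a tested 5′ splice site inside its poison exon, between the ends of a 276-nt and a longer form, with a share of 4% and 2.08% in Fubp1 knockdown and 0.86% and 3.26% in the double knockdown, against 9.68%, 5.5% and 9.09% in siNT. The Khsrp libraries had 2.01% and 3.12% and the Rbm38 libraries 5.31% and 4.22%. All 8 knockdown libraries were below the 3 of siNT, from 92 to 226 reads, and none of the 4 differences passed, with limma adjusted p-values of 0.29, 0.33, 0.069 and 0.52 in Fubp1, Khsrp, double and Rbm38 knockdown. That site says which form of the Tra2b poison exon is used, not how often the exon is included, and the deepest Tra2b event, a 554-nt intron, was retained at 0% to 1.8%.

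The 165-nt poison exon of Srsf6 was included at 1.15% to 6.53% over the 11 libraries, with siNT itself spanning 2.41% to 6.53%, and passed in no comparison; its differences from siNT ran from -1.8 to 0.1 points. For Srsf1 the deepest event, a 185-nt coding exon, had a mean PSI of 100, and its 196-nt intron was retained at 2.76% and 1.73% in Fubp1 knockdown and 2.34% and 2.41% in the double knockdown, against 4.5%, 2.77% and 3.52% in siNT, with limma adjusted p-values of 0.33 and 0.25. Its 368-nt intron was retained at 0.84% and 0.88% in Fubp1 knockdown and 0.45% and 0.78% in the double knockdown, against 1.41%, 1.45% and 2.35% in siNT, with limma adjusted p-values of 0.39 and 0.055. These are both of the tested Srsf1 events, added after their values were seen. The authors' deposited table marks the 196-nt intron as changed in the double knockdown alone and the 368-nt intron in Rbm38 knockdown alone. For Srsf3 just 1 event had enough reads, a 3′ splice site of its 456-nt poison exon used at 96.27% to 100%, which does not measure whether that exon is included. The test of whether the double knockdown departs from the sum of the single knockdown effects called no member event: of 37 events, none of them in Srsf3, 0 had an adjusted p under 0.05 in the limma interaction test, 4 an unadjusted p under 0.05 and the lowest adjusted p was 0.304, while 0.0732% of all events passed (0.0698% with a size of at least 10 points). With counting weights 1 member event passed.

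The same limma fit covers events of related genes, to be read against 7.49% of all events called in the double knockdown and 0.713% in Fubp1 knockdown. Of 138 tested events in the other SR and SR-related genes, 13 were called in the double knockdown (9.42%), 6 higher and 7 lower, and 0 in the single knockdowns, where 1 passed the adjusted p alone in Fubp1 knockdown. Of 82 tested events in genes for SR kinases, a phosphatase and import, 6 were called in the double knockdown (7.32%), 1 in Fubp1 knockdown and 0 in Khsrp and Rbm38 knockdown. In the authors' deposited table, 5, 1, 8 and 3 of the 20 tested exons and introns of the members were marked as changed in Fubp1, Khsrp, double and Rbm38 knockdown, against 5.05%, 2.23%, 14.7% and 2.43% of the 47437 tested exons and introns of all genes. No source used here gives the threshold behind that mark, and the members' events hold more reads than most.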

How the data were processed

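The authors' deposited expression table gives 1 RPKM value per group and, for 23378 of 52661 genes, their log2 fold change over siNT with a p-value and FDR; the submitters' processing notes name Salmon 0.14.1, edgeR and the build mm10. With no value per library no expression model could be fitted here, so expression results are the authors' own. The deposited event table gives PSI in percent for 401633 entries per library and, per the file headers and cells, corrected counts of reads for inclusion and for exclusion; no source used here gives the caller's version. The authors' deposited table of events adds a mark (changed or not) per knockdown, used as a score without a test. Entries for the first of several splice sites (37194) were left out, and PSI recomputed from the reads matched the deposited value within 0.05 points.

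Events with at least 10 reads in every library and a mean PSI of 1 to 99 entered limma 3.58.1 (R 4.3.3) on log2((inclusion + 0.5)/(exclusion + 0.5)), with weights of 1/(counting variance + extra variance), the extra SD being 0.38 on the log2 scale, 1 mean per group over 11 libraries, empirical Bayes with a trend, and Benjamini-Hochberg adjustment over all events. The counting variance in the weights covers counting error only, and PCR reads are not independent molecules. The extra variance stands for spread between replicates and was estimated over all tested events. The term for the library sets leaves siNT C as the only siNT library for Khsrp, double and Rbm38 knockdown. Named events were those called, those in NMD transcripts and, for a member with neither, its deepest event; others are said to be chosen after their values were seen. The members and lists were chosen with earlier results of these data known. Same-letter replicates did not deviate together (correlations of -0.062 to 0.069), so the letters were not taken as pairs. Both Fubp1 libraries carry the letter A in their titles. The description of library number 4 calls it replicate B, and that letter is used here. Event coordinates are as deposited and do not follow GRCm38; exons and introns were matched to GENCODE vM21 (GRCm38) by their lengths and arrangement (of 41 exon events 30 matched an annotated exon of the same length, 3 matched at 1 splice site and 8 did not match; all 28 introns matched). Alternatives covered the weights, pseudocount, filters, trend, library-set term, replicate block, intron balance, size threshold, leaving out each library, and, for expression, the FDR threshold, the RPKM ratio and the genes adjusted over; siNT of the same library set and the background of genes with at least 30 RPKM were added after seeing the data. Leaving out a library of a group outside a comparison leaves that comparison's estimate nearly unchanged. The counts of alternatives passed are therefore not counts of independent checks. All deposited sample columns were mapped. The value of 1 marker gene is not reported here.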

Additional observations from a re-analysis of the deposited data

How the results depend on the processing

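The counts of called events in Fubp1 knockdown, 1 in the fit as reported both with and without the size threshold, were 0 without weights, without a filter on mean PSI (98 events) and with a term for the library sets, and 3 with the size threshold and 7 at adjusted p alone with counting weights; leaving out 1 library gave 0 to 1 and 0 to 2. In the double knockdown the 3 calls became 1 without a filter on mean PSI, 1 with the library-set term and 7 at a threshold of 5 points, and the 8 events at adjusted p alone became 3 without weights and 3 with the library-set term; leaving out 1 library gave 2 to 4 calls and 4 to 8 events. Double against Fubp1 knockdown gave 0 calls and 3 events at adjusted p alone, 2 and 5 with counting weights, and 0 events without weights or with the library-set term; leaving out 1 library gave 0 to 1 and 0 to 4. Double against Khsrp knockdown gave 2 calls and 4 events, 0 of each without weights, and 0 to 3 calls and 0 to 4 events leaving out 1 library. The test of additivity gave 0, and 1 event with counting weights. Khsrp and Rbm38 knockdown gave 0 called events against siNT in every setting run. The replicate block gave 1 call in Fubp1 and 3 in the double knockdown and changed no other count of calls against siNT. Leaving out introns with a read-balance p under 0.05 left 29 member events. Of these, 3 were called in the double knockdown and 6 passed at adjusted p alone. At the authors' FDR under 0.01 the members that fell in Fubp1 knockdown were 2, not 4. No called event or gene changed direction; the members' RPKM ratios differed from the authors' fold changes by medians of 0.10, -0.12, -0.11 and -0.13 on the log2 scale in Fubp1, Khsrp, double and Rbm38 knockdown. The cause of these shifts was not tested. With 2 libraries per knockdown and no expression values per library, small changes may go undetected, and the events of least depth (30 reads in a library) are the least precise.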
